A study of Homo sapiens with 6 samples.

Results

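The cytosolic heat shock chaperones and co-chaperones are a set of 39 named genes, chosen by symbol: 2 heat shock factors, 6 HSP70 genes, 3 HSP110 genes, 2 HSP90 genes, 2 genes with small heat shock protein names, 8 J-protein genes, 4 BAG genes, 11 co-chaperones of HSP90 and HSP70, and 1 collagen chaperone. Ensembl identifiers were matched to symbols through GENCODE 44, and all 39 were found among the 58735 rows of the expression table; HSPB11 was found under its current symbol, IFT25. RNA sequencing was used to measure transcripts in the RKO line, which derives from a human colorectal carcinoma. The libraries were EZA-treated cells (3 replicates) and cells given DMSO, the solvent (3 replicates), and the study calls the replicates biological. What EZA stands for is not written out in the labels, and no dose or duration of treatment was found in them. Only 1 cell line was used, and nothing more is said of separate cultures, so the spread behind each p-value is that between these libraries and may be technical.

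HSP70 proteins bind and release unfolded stretches of client proteins in a cycle driven by ATP. J-proteins bring clients and start ATP hydrolysis, while BAG and HSP110 proteins exchange the nucleotide and so release the client. HSP90 takes over many clients, such as kinases and steroid receptors, with co-chaperones that load clients, hold the closed state or speed its ATPase; heat shock factors, chiefly HSF1, drive many of these genes by binding repeated GAA units in their promoters.

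Total counts ran from 14070611 to 18840954 per library. Of all genes, 13503 had enough counts to be tested. EZA replicate 3 stood apart: its log-CPM values correlated with those of the other EZA libraries at 0.962 and 0.964, while those 2 correlated at 0.991 with each other, and mitochondrially encoded genes took 0.203% of its counts, against 3.68% to 4.29% in the other EZA libraries and 4.45% to 5.02% in DMSO. Of 20 cell type markers, the epithelial or intestinal KRT8, KRT18, EPCAM and CDX2 were measured in every library, while CDH1, the epithelial cadherin, CDX1, LGR5 and MUC2 had 0 counts in all 6, and KRT19, KRT20 and VIL1 had 0 or 1. Of the markers of other cell types, the mesenchymal VIM had 83 to 210 counts a library, the leukocyte gene CD68 had 36, 27 and 0 in EZA and 12 to 25 in DMSO, VWF had 9 in EZA replicate 3, and PTPRC and PECAM1 had 0 in all 6. The part of these markers in the results was not tested.

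Chaperone transcripts were lower on balance in EZA-treated cells. HSPA2, the testis-enriched HSP70, had 0 counts in all 6 libraries, which allows up to 0.213 CPM (counts scaled to a common library size) at 3 counts in the smallest library (counting error only). Of the 38 members tested, 13 fell and 4 rose (edgeR quasi-likelihood test, adjusted p below 0.05). That is 44.7% of those tested, against 17.7% of all genes tested. The members were chosen with earlier results of these data known, so the difference between these shares is a description and not an independent test. Falls made up 7.82% and rises 9.89% of all genes. The 13 that fell were HSPA1A, HSPA1B, HSPA8, HSPA4L, HSPH1, HSPB11, DNAJA1, DNAJA4, DNAJB1, BAG2, BAG3, AHSA1 and CHORDC1, and the 4 that rose were HSPA13, DNAJB2, BAG1 and STUB1. The median log2 fold change, EZA over DMSO, was -0.42 over the 38 and -0.01 over all genes, and 29 of the 38 values were negative. EZA and DMSO libraries did not overlap for 29 members, 24 of them lower and 5 higher in EZA, where 42.7% of all genes had groups without overlap. The threshold named by the study (at least a 2-fold difference and p below 0.05 before adjustment) was passed by 4 members, all lower (HSPA1A, HSPA1B, HSPA8 and CHORDC1), and by 5.73% of all genes.

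**Figure D1:**
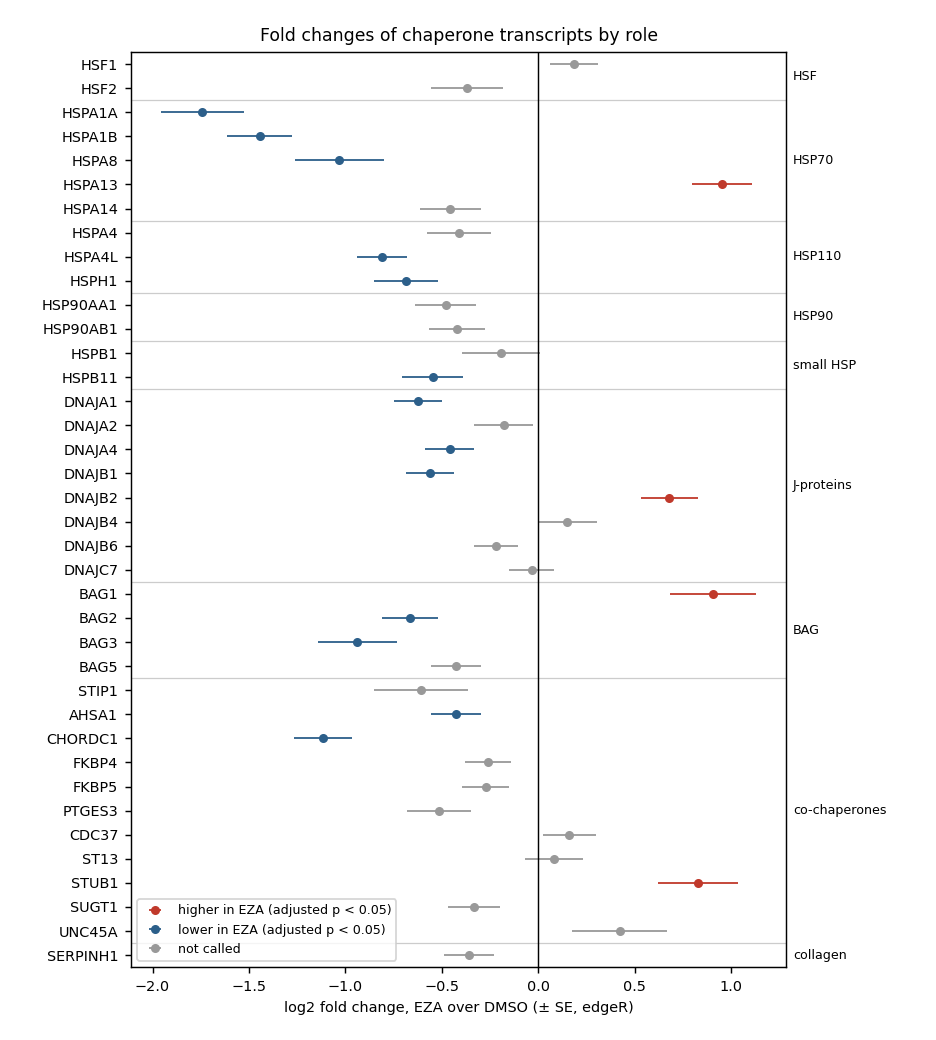
Log2 fold changes, EZA over DMSO, of the 38 tested members from the edgeR fit (horizontal axis; bars are standard errors), ordered by role. Blue points are the 13 members lower in EZA, red points the 4 higher and grey points the 21 that did not pass the test; the largest fall is HSPA1A at -1.74 and the largest rise HSPA13 at 0.95.

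Summed over the set, the chaperone transcript level was 2874, 3110 and 2939 FPKM (reads scaled by transcript length and library total) in the EZA libraries and 3975, 3947 and 3843 FPKM in the DMSO libraries. The mean was thus 2974 ± 122 FPKM in EZA and 3922 ± 69.3 FPKM in DMSO (SD, n = 3 each), a ratio of 0.758. The members took 1.11%, 1.15% and 1.14% of the nuclear gene counts in EZA, against 1.65%, 1.58% and 1.60% in DMSO. HSP90 transcripts were the largest share of the summed level, at 1302 ± 117 FPKM in EZA and 1748 ± 46.1 FPKM in DMSO. HSP70 transcripts had the lowest ratio of any role, with 284 ± 71.9 FPKM in EZA and 539.5 ± 19.9 FPKM in DMSO, a ratio of 0.526. Most of the HSP70 sum was HSPA8, with means of 231 FPKM in EZA and 466 FPKM in DMSO. The HSP70 sums were 299, 346 and 205 FPKM in EZA replicates 1, 2 and 3.

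**Figure D2:**
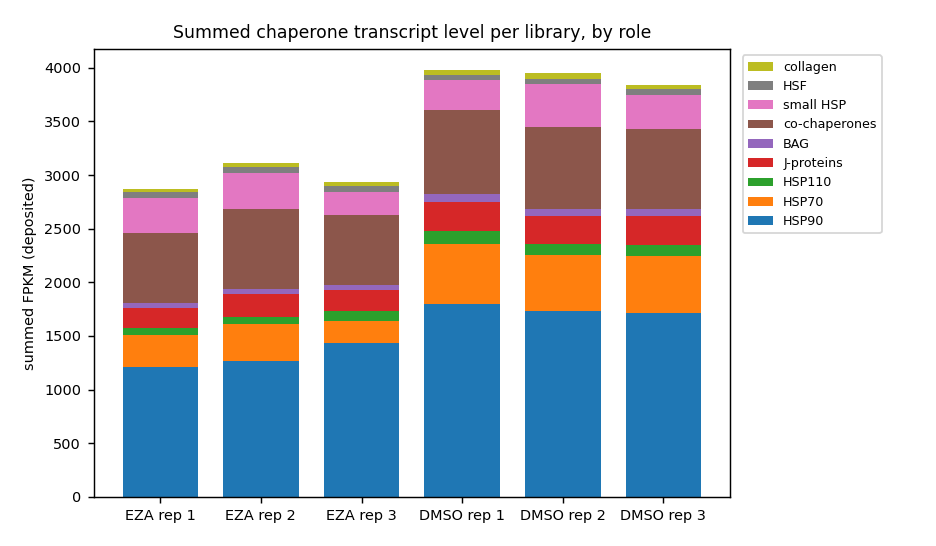
Summed deposited FPKM of the members in each library (vertical axis), stacked by role, with the 3 EZA libraries left of the 3 DMSO libraries. All 3 EZA stacks (2874 to 3110) are lower than the DMSO stacks (3843 to 3975), and the HSP90 and HSP70 segments shrink most in FPKM.

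The heat shock factors did not pass the test. HSF1, the main activator of heat shock genes, had 265, 257 and 256 CPM in EZA, against 205, 252 and 228 CPM in DMSO, a log2 fold change of 0.18 ± 0.12 (SE; adjusted p = 0.325, edgeR). HSF2, a related factor that can pair with HSF1, had 16.1, 17.0 and 18.9 CPM in EZA and 25.9, 16.7 and 24.6 CPM in DMSO, and the groups overlapped (log2 fold change -0.37 ± 0.19, adjusted p = 0.194, edgeR). The span of HSF1 overlaps that of DGAT1 on the opposite strand, a gene with 46.3% as many counts. DGAT1 was itself higher in EZA (log2 fold change 0.78, adjusted p = 0.00796, edgeR). The libraries do not mark strand, and overlap of exons was not examined. With the trend with GC content and transcript length removed, the value of HSF1 turned to -0.28.

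The HSP70 genes held the largest falls of the set. HSPA1A and HSPA1B encode the near-identical stress-inducible HSP70 and lie beside each other on chromosome 6 (GRCh38), at 31815543 to 31817946 and at 31827738 to 31830254. HSPA1A had 3.24, 2.71 and 4.38 CPM in EZA, against 12.3, 10.2 and 11.8 CPM in DMSO, with a log2 fold change of -1.74 ± 0.22 (adjusted p = 0.00316, edgeR). HSPA1B had 34.2, 31.6 and 45.5 CPM in EZA, against 90.9, 111 and 101 CPM in DMSO, with a log2 fold change of -1.44 ± 0.17 (adjusted p = 0.00239, edgeR). Both genes were lower in every EZA library than in any DMSO library. These counts are not separate: 72.4% of the 100-base words of HSPA1A transcripts also occur in other genes, chiefly HSPA1B, and how shared reads were counted is not given. The sum of both genes gave a log2 fold change of -1.47 (adjusted p = 0.00199, edgeR).

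The constitutive HSPA8, the most abundant HSP70 transcript here, had 1232, 1417 and 735 CPM in EZA, against 2413, 2219.9 and 2283 CPM in DMSO. Its log2 fold change was -1.03 ± 0.23 (adjusted p = 0.0213, edgeR), and EZA replicate 3 was the lowest library; without it the value was -0.80. HSPA13, an HSP70 relative of the microsomal fraction rather than the cytosol, rose and was the only HSP70 gene to do so: 99.5, 113 and 99.0 CPM in EZA, against 61.3, 43.4 and 56.2 CPM in DMSO (log2 fold change 0.95 ± 0.15, adjusted p = 0.00790, edgeR). HSPA14, which works at the ribosome, had a log2 fold change of -0.46 that did not pass the test (adjusted p = 0.0771, edgeR). It shares 13.2% of its words with MSANTD7, which it overlaps on the same strand. The ratio of HSPA1A plus HSPA1B to HSPA8, in FPKM, was 0.0584, 0.0466 and 0.131 in EZA and 0.0824, 0.105 and 0.0949 in DMSO. EZA replicates 1 and 2 lay below all DMSO ratios and EZA replicate 3 above them (log2 difference -0.40, exact two-sided permutation test, p = 0.4, where 0.1 is the smallest p of 3 against 3 libraries). Without EZA replicate 3 the log2 difference was -0.84, at the smallest p that 2 against 3 libraries allow (exact permutation test, p = 0.2).

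Heat shock factors bind inverted GAA units, and 5 promoter stretches are shown because they hold such words: those of the 4 members with the largest falls, and that of HSP90AA1, which did not pass the test. Promoter windows of 250 bases before to 50 after each start came from RefSeq (GRCh38.p14). Each sequence below runs 5′ to 3′ on the strand of its gene, with the word in capitals and 20 bases to each side. A 2-unit word is marked in the first 2 and a 3-unit word in the others. Only 1 word is marked in each. The HSPA8 window holds another 3-unit word, at -230 to -218 from the start. The CHORDC1 window holds 3 overlapping 3-unit words and further 2-unit words, and the HSP90AA1 stretch also holds a 2-unit word.
HSPA1A, chr6:31815417-31815464, plus strand: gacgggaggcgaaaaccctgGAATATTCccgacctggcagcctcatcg
HSPA1B, chr6:31827613-31827660, plus strand: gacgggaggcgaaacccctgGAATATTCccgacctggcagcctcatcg
HSPA8, chr11:123062159-123062211, minus strand: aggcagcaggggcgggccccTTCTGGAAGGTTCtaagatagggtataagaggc
CHORDC1, chr11:90223072-90223124, minus strand: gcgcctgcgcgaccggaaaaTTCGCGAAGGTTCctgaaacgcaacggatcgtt
HSP90AA1, chr14:102087100-102087152, minus strand: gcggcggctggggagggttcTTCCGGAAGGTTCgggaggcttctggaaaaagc
The HSPA1A and HSPA1B windows were identical at 277 of 301 aligned columns (92.0%).

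The words searched were GAANNTTC and TTCNNGAA (2 units) and GAANNTTCNNGAA and TTCNNGAANNTTC (3 units). Each 2-unit word is its own reverse complement and the 3-unit words are reverse complements of each other, so both strands are covered, and every 3-unit word contains a 2-unit one. Windows were found for 34 of the 39 members (53 windows); HSF1, HSPA14, FKBP4, ST13 and STUB1 had none. A 2-unit word was in 18 of the 53 windows (34.0%), against 13.5% of all 35116 promoter windows, and a 3-unit word in 7 (13.2%), against 0.490% of all windows. The 7 members with a 3-unit word were CHORDC1, HSPA8 and DNAJA1, which fell, and HSP90AA1, HSP90AB1, SERPINH1 and DNAJB6, which did not pass the test; their median log2 fold change was -0.48. The 10 with only a 2-unit word held 6 members that fell and a median of -0.59. The 16 tested members whose windows held neither word had a median of -0.32, with 4 that fell (HSPH1, BAG3, AHSA1 and HSPB11) and 3 that rose (HSPA13, BAG1 and DNAJB2). A 3-unit word was in 3 of the 13 members that fell (23.1%) and in 4 of the 17 uncalled members with a window (23.5%). A word of either length was in 9 (69.2%) and 8 (47.1%) of these. Whether the words go with the falls was not tested. A word match is a description of these letters, and no binding was measured.

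**Figure D3:**
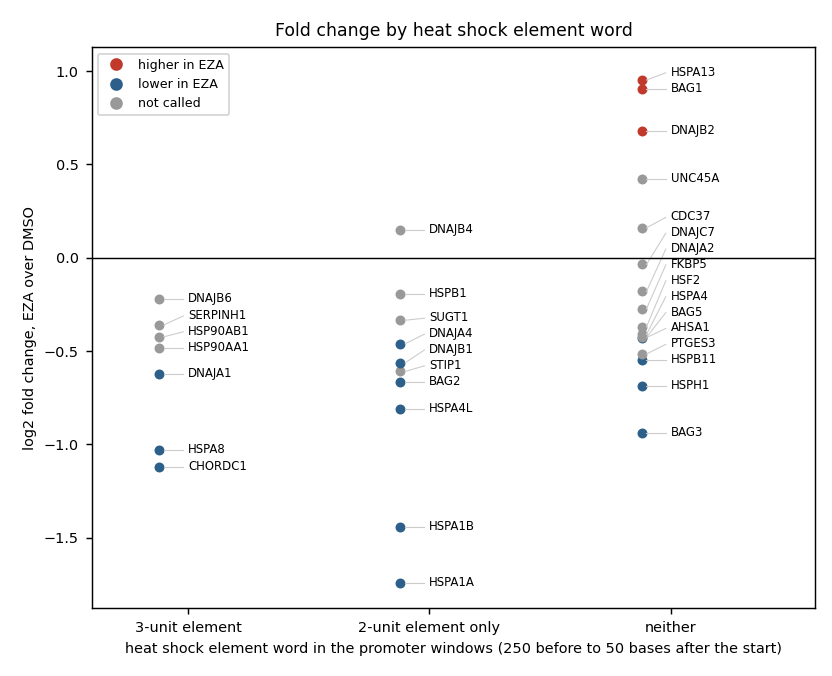
Log2 fold change, EZA over DMSO (vertical axis), of the 33 tested members with a promoter window, grouped by the longest heat shock element word found in it (horizontal axis; points are members, coloured by call). All 7 members with a 3-unit word lie below 0, from -0.22 to -1.12. So do 9 of the 10 with only a 2-unit word and 11 of the 16 with neither. The 3 members shown that rose lie in the group with neither word, and STUB1, which also rose, had no window.

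Of the 3 HSP110 genes, HSPA4L and HSPH1 fell. These encode large HSP70 relatives that exchange nucleotides on HSP70 and help it pull aggregates apart. HSPA4L had 70.1, 67.1 and 78.8 CPM in EZA, against 133, 113 and 133 CPM in DMSO (log2 fold change -0.81 ± 0.13, adjusted p = 0.00751, edgeR). HSPH1, the heat-inducible member, had 50.2, 45.1 and 67.9 CPM in EZA, against 87.2, 86.4 and 88.9 CPM in DMSO (log2 fold change -0.69 ± 0.16, adjusted p = 0.0261, edgeR). HSPA4, the most abundant of the 3, had 286, 308 and 414 CPM in EZA, against 483, 407 and 450.3 CPM in DMSO, and EZA replicate 3 overlapped with DMSO (log2 fold change -0.41, adjusted p = 0.115, edgeR). Without that library HSPA4 was at -0.59 and passed the test (adjusted p = 3.79e-05, edgeR). The FPKM ratio of HSPH1 to HSPA4 was 0.0994 ± 0.00903 in EZA and 0.121 ± 0.00972 in DMSO (SD, n = 3 each), without overlap, at the smallest p that the exact permutation test allows (p = 0.1).

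The HSP90 genes did not pass the test, although they were the most abundant chaperones per length with HSPA8. HSP90AB1, the constitutive form, had 2808, 2813 and 3251 CPM in EZA, against 4046, 4007 and 3841 CPM in DMSO (log2 fold change -0.42 ± 0.14, adjusted p = 0.0744, edgeR). The groups did not overlap, and the unadjusted p was 0.0172. HSP90AA1, the inducible form, ranged from 1489.9 to 1947 CPM in EZA and from 2165 to 2503 CPM in DMSO, again without overlap (log2 fold change -0.48 ± 0.16, adjusted p = 0.0664, edgeR). The balance of the 2 forms did not differ beyond its spread: the FPKM ratio of HSP90AA1 to HSP90AB1 was 0.325 ± 0.0210 in EZA and 0.340 ± 0.0288 in DMSO (SD, n = 3 each; exact permutation test, p = 0.5). Without EZA replicate 3, both genes passed the test, at -0.59 and -0.49.

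Of the 2 small heat shock protein names, HSPB1, a chaperone that holds unfolded proteins without ATP, did not pass the test. It had 529, 548 and 358 CPM in EZA, against 462, 659 and 522 CPM in DMSO, and the groups overlapped (adjusted p = 0.526, edgeR). HSPB11, a subunit of the ciliary transport machinery despite its name, fell to 11.9, 14.2 and 12.02 CPM in EZA, against 20.8, 16.7 and 18.3 CPM in DMSO (log2 fold change -0.55 ± 0.16, adjusted p = 0.0427, edgeR).

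Among the 8 J-protein genes, DNAJA1, DNAJA4 and DNAJB1 fell and DNAJB2 rose. DNAJA1, a major cytosolic partner of HSP70, had 259, 286 and 286 CPM in EZA, against 460.4, 402 and 419 CPM in DMSO (log2 fold change -0.62 ± 0.12, adjusted p = 0.0143, edgeR). DNAJB1, the stress-inducible partner that also takes part in disaggregation, had 123, 148 and 145 CPM in EZA, against 194, 212 and 209 CPM in DMSO (log2 fold change -0.56 ± 0.12, adjusted p = 0.0199, edgeR). No EZA library of either gene reached the lowest DMSO library. DNAJA4, a relative of DNAJA1, had 28.1, 29.6 and 32.9 CPM in EZA, against 41.1, 42.8 and 40.7 CPM in DMSO (log2 fold change -0.46 ± 0.13, adjusted p = 0.0391, edgeR). DNAJB2, which binds ubiquitin and sorts HSP70 clients to the proteasome, had 63.4, 63.6 and 74.1 CPM in EZA, against 35.3, 46.7 and 43.5 CPM in DMSO (log2 fold change 0.68 ± 0.15, adjusted p = 0.0190, edgeR). The other 4 J-protein genes, DNAJA2, DNAJB4, DNAJB6 and DNAJC7, lay between -0.22 and 0.15 and did not pass the test.

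**Figure D4:**
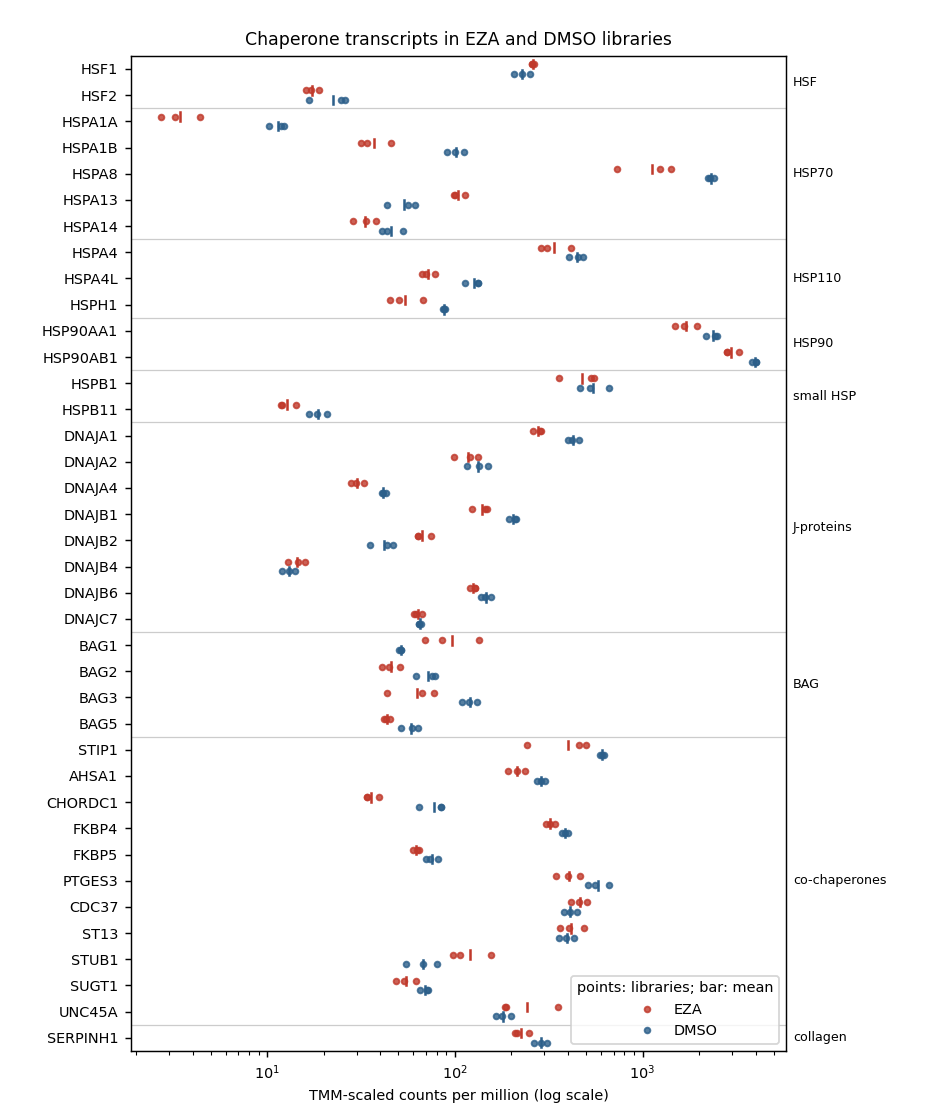
TMM-scaled CPM of the 38 tested members (logarithmic horizontal axis) in each library, with EZA points above DMSO points for each gene and a bar at each group mean. The 2 groups separate for 29 members, 24 with EZA to the left and 5 with EZA to the right (and for 42.7% of all genes tested). Among them are HSPA1A, HSPA1B, HSPA8, DNAJA1 and CHORDC1, with EZA to the left, and HSPA13 and DNAJB2, with EZA to the right.

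The BAG genes moved in both directions. BAG3, which links HSP70 to selective autophagy, had 77.1, 66.8 and 43.4 CPM in EZA, against 109, 131 and 119 CPM in DMSO (log2 fold change -0.94 ± 0.20, adjusted p = 0.0189, edgeR); without EZA replicate 3, its lowest library, the value was -0.73. BAG2, an inhibitor of the ubiquitin ligase STUB1, had 40.9, 44.5 and 50.8 CPM in EZA, against 78.3, 62.0 and 75.4 CPM in DMSO (log2 fold change -0.66 ± 0.15, adjusted p = 0.0196, edgeR). BAG1, which brings HSP70 to the proteasome, rose: it had 69.2, 85.4 and 134 CPM in EZA, against 51.7, 51.8 and 50.6 CPM in DMSO (log2 fold change 0.91 ± 0.22, adjusted p = 0.0287, edgeR). Its highest value was in EZA replicate 3, and without that library the log2 fold change was 0.59. BAG5, at -0.43, did not pass the test (adjusted p = 0.0528, edgeR).

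Of the 11 co-chaperones, CHORDC1 and AHSA1 fell and STUB1 rose. CHORDC1, an HSP90 partner, had 33.8, 33.8 and 39.4 CPM in EZA, against 83.9, 64.4 and 84.1 CPM in DMSO (log2 fold change -1.12 ± 0.15, adjusted p = 0.00414, edgeR). AHSA1, which speeds the HSP90 ATPase, had 214, 237 and 191 CPM in EZA, against 303, 287 and 274 CPM in DMSO (log2 fold change -0.43 ± 0.13, adjusted p = 0.0496, edgeR). Both were lower in every EZA library than in any DMSO library, but AHSA1 lost its call in 11 of 18 alternatives, the most of any called member, among them other scalings and filters (adjusted p = 0.0505 to 0.0750, edgeR). STUB1, the ubiquitin ligase that marks HSP70 and HSP90 clients for degradation, had 97.5, 106 and 155 CPM in EZA, against 54.7, 80.2 and 67.5 CPM in DMSO (log2 fold change 0.83 ± 0.21, adjusted p = 0.0302, edgeR). It was highest in EZA replicate 3, and without that library the log2 fold change was 0.60. Across the 18 alternatives its lowest log2 fold change was 0.16, and it lost its call in 6. Among these 6 was removal of the GC and length trend with EZA replicate 3 left out.

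The other 8 co-chaperones did not pass the test. PTGES3, which holds HSP90 closed and was the most abundant of the 11 per length in DMSO, had 399.5, 467 and 344 CPM in EZA, against 666, 509 and 555 CPM in DMSO (adjusted p = 0.0602, edgeR). STIP1, the scaffold that hands clients from HSP70 to HSP90, ranged from 241 to 501 CPM in EZA and from 591 to 625 CPM in DMSO, with its lowest value in EZA replicate 3 (log2 fold change -0.61 ± 0.24, adjusted p = 0.113, edgeR). Without that library STIP1 was at -0.35 and passed the test (adjusted p = 0.00767, edgeR). The immunophilins FKBP4 and FKBP5 were at -0.26 and -0.27, and their FPKM ratio, FKBP5 to FKBP4, was 0.0943 ± 0.00855 in EZA and 0.0949 ± 0.00934 in DMSO (SD, n = 3 each; exact permutation test, p = 0.8). SUGT1 was at -0.33, CDC37, which loads kinases onto HSP90, at 0.16, ST13, an HSP70 cofactor, at 0.08, and UNC45A, a myosin chaperone, at 0.42, which was 0.04 without EZA replicate 3. SERPINH1, the collagen chaperone of the endoplasmic reticulum, had 209.6, 214 and 247 CPM in EZA, against 265, 309 and 287 CPM in DMSO (log2 fold change -0.36, adjusted p = 0.0826, edgeR).

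**Figure D5:**
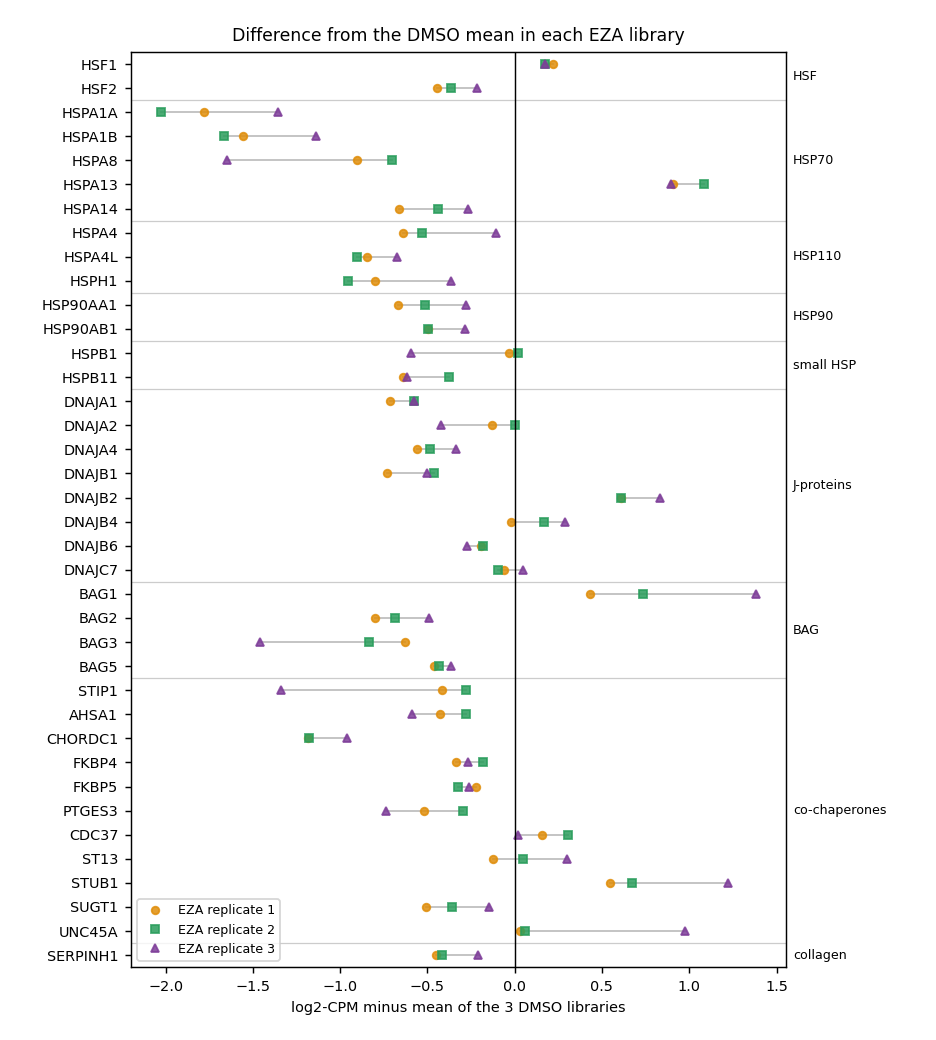
Difference of log2-CPM between each EZA library and the mean of the 3 DMSO libraries (horizontal axis) for the 38 tested members, with a marker for each EZA replicate. Replicate 3 (triangles) lies furthest from the others for STIP1, BAG3, HSPA8, BAG1 and UNC45A, while HSPA1A, HSPA1B and CHORDC1 lie left of 0 in all 3 libraries.

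Most calls did not hold with 1 library left out. Whichever DMSO library was left out, fewer members and fewer of all genes were called than in the main fit (17.7% of all genes). HSPA1A, HSPA1B and CHORDC1 kept theirs whichever library was left out. The other 14 all lost theirs without DMSO replicate 3, where 1.84% of all genes were called. HSPA13 alone of these 14 was called without DMSO replicate 1, where 1.6% of all genes were. HSPA13, HSPA4L, DNAJB2 and BAG2 were called without DMSO replicate 2, where 5.71% of all genes were. The median log2 fold change of the 38 was -0.35, -0.42 and -0.41 without DMSO replicates 1, 2 and 3. The members called were 7 lower and 4 higher without EZA replicate 1, where 11.4% of all genes were called. They were 9 lower and 4 higher without EZA replicate 2, where 10.6% of all genes were called. Without EZA replicate 3, 27 members were called, 23 lower and 4 higher, where 38.4% of all genes were called, and none of the 17 was lost. The 10 gained were HSPA4, both HSP90 genes, STIP1, HSF2 (-0.43), HSPA14 (-0.55), BAG5 (-0.45), PTGES3 (-0.41), SUGT1 (-0.43) and SERPINH1 (-0.43), with log2 fold changes in brackets where not given above. Median differences of the 38 from the DMSO mean were -0.46, -0.36 and -0.28 on the log2 scale in EZA replicates 1, 2 and 3.

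Fold changes across genes moved with GC content, with a Spearman correlation of 0.51 over 13445 genes and 0.19 over the 38 members; all points come from the same 6 libraries. The 18 members with up to 45% GC had a median log2 fold change of -0.44, against -0.25 for all such genes, and the 10 with over 55% GC had -0.02, against 0.32. With the GC and length trend removed, 10 members were lower and 3 higher, which is 34.2% of the 38, against 11.4% of all genes. The median log2 fold change of the 38 was then -0.27, against -0.42 in the main fit. HSPH1 (-0.39), HSPB11 (-0.42), DNAJA4 (-0.42), BAG2 (-0.27), DNAJB2 (0.33) and STUB1 (0.33) were no longer called, and SERPINH1 (-0.65) and DNAJB4 (0.59) were. The adjusted p of HSPB11 was then 0.0578, that of DNAJA4 0.0542 and that of DNAJB2 0.0629 (edgeR). Opposite-strand neighbours overlapped the gene spans of DNAJA4 (SKIC8, 120% as many counts), BAG5 (KLC1, 103%), DNAJC7 (CNP, 252%), DNAJB1 (TECR, 56.6%), STUB1 (JMJD8, 25.1%), BAG2 (RAB23, 13.3%) and AHSA1 (VIPAS39, 9.73%). These percentages are the neighbour's own total counts over those of the member. Overlap of exons was not examined, so whether any reads of these neighbours entered the members' counts was not tested.

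Other chaperone groups were smaller or mixed in their changes. Of the 8 subunits of TRiC, the chaperonin that folds actin and tubulin, 1 fell, CCT6A (337, 369 and 372 CPM in EZA, against 529, 469 and 504 CPM in DMSO), and the median log2 fold change was -0.15. Of the 6 subunits of prefoldin, which feeds TRiC, 1 rose, PFDN2, at 0.45 (adjusted p = 0.0442, edgeR). Of 23 further cofactors of HSP90 and HSP70, 1 fell and 4 rose, with a median of 0.08; the 2 with the largest change were FKBP8, an immunophilin of the mitochondrial surface, at 0.73, and PPID, an HSP90-bound cyclophilin, at -0.63. Of 13 further J-proteins, 1 fell, the ribosome-bound DNAJC2, at -0.64, and none rose. Beside these counts, 7.82% of all genes tested fell and 9.89% rose. A single call in so short a list is not read as a result about the list.

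Of 15 further heat shock gene names, 12 had too few counts to be tested, among them HSPA6, the strictly stress-induced HSP70, with 3 to 9 counts a library. The 1 called was HSF4, a heat shock factor known from the lens, which rose to 3.30, 3.26 and 4.88 CPM in EZA, against 1.63, 1.92 and 2.11 CPM in DMSO. Of 11 heat-induced genes that are not chaperones, 3 fell and 2 rose, with a median log2 fold change of -0.23. Of all genes tested, 17.7% were called in either direction. The largest changes were falls: RGS2, a regulator of G-protein signalling, was at -1.40 (adjusted p = 0.0142, edgeR) and USPL1, a SUMO protease, at -0.75 (adjusted p = 0.0175, edgeR).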

How the data were processed

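Libraries were made from oligo(dT)-selected RNA with the NEBNext Ultra kit and do not mark strand, per the labels' protocols. Per the submitters' processing notes, the tools were HISAT2, featureCounts, FastQC and DESeq2 and the build GRCh38 (hg38); neither versions nor the annotation behind the counting were found in these sources. For each Ensembl gene the authors deposited counts, as whole numbers, and FPKM; the FPKM are those counts over a fixed gene length and a fixed total of the library. Counts were used for the tests across genes, and FPKM for levels per length and for ratios.

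Genes passing filterByExpr (99.8% of counts) were scaled by TMM; the two-sided test was the robust quasi-likelihood test of edgeR (glmQLFit, glmQLFTest), with Benjamini-Hochberg adjustment over 13503 genes. CPM are counts scaled to a common library size after TMM, and log-CPM used a prior count of 2. A call is an adjusted p below 0.05. The 4 ratios used exact permutation tests on log2 values. Replicates differed by more than counting noise (chi-square per degree of freedom 4.75 to 115), so none was counted as a copy.

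The members and lists were chosen with earlier results of these data known. Members with a call, both factors and the most abundant gene of each role are given by library; of each further list at most 2 called genes with the largest change are named, and HSPA6 was named after its values were seen. Sequence windows came from RefSeq; shared 100-base words came from GENCODE 44 transcripts. The tools were edgeR 4.0.16, DESeq2 1.42.0 and limma 3.58.1 in R 4.3.3, with Python 3.11.15 for sequences and ratios; the tests were tried on simulated data. As alternatives, the fit was repeated with DESeq2, limma-voom, other scalings and filters, replicate number as a block, removal of the GC and length trend (lowess, span 0.3) and each library left out.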

Additional observations from a re-analysis of the deposited data

How the results depend on the processing

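Members called numbered 17 in the main analysis and 13 to 21 under other scalings, filters, DESeq2 (21), limma-voom and GC and length trend removal (13). They numbered 3 to 27 with 1 library left out (genes called 220 to 5289), 4 at the study's threshold (genes 774), 8 with the trend removed and the replicate number as a block (genes 602), and 32 with the trend removed and EZA replicate 3 left out (genes 5329), an alternative chosen after seeing the data. All genes called were 2392 (1336 higher, 1056 lower), 1538 with the trend removed, 1059 higher and 1270 lower when scaled by library size alone, and 1544 higher and 891 lower when TMM left out mitochondrially encoded genes. With the replicate number as a block alone, 14 members and 1970 genes were called; same-numbered libraries correlated at 0.0327, -0.175 and 0.0266 in their deviations and not every library correlated best with its own number, so the numbers were not taken as pairs. Of the 17 calls, 3 held in every alternative and none changed sign, while 7 uncalled members did. With the trend removed, also with the block, and with the trend removed and EZA replicate 3 left out, HSF1 was -0.28, -0.28 and -0.21, DNAJA2 0.0716, 0.0652 and 0.17, CDC37 -0.19, -0.19 and -0.11, and SUGT1 0.0805, 0.0741 and 0.0931. UNC45A was -0.21 in the last of these. DNAJC7 was 0.0034 with TMM without mitochondrially encoded genes, and 0.0383 and 0.0327 with the trend removed, without and with the block. ST13 ranged from -0.0374 to 0.18 with 1 library left out. The log2 difference of the FKBP5 to FKBP4 ratio was -0.00818, 0.00868 with a pseudocount of 0.5 FPKM, and -0.0851 to 0.0610 with 1 library left out. The causes were not tested. With 3 libraries a group, the exact tests of ratios cannot go below p = 0.1, and genes with few counts could not be tested.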
